A study of Mus musculus with 9 samples.

Results

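The genes described here are Trp53, which encodes the transcription factor p53, and 9 genes that p53 activates directly: Mdm2, Cdkn1a, Ccng1, Sesn1, Gadd45a, Phlda3, Zmat3, Eda2r and Aen. They were chosen by name as well-known direct targets, with earlier results of these data known. They were found by gene name in the table of raw counts, where all 10 were present among 50813 genes. All 10 also passed the filter on low counts that left 14593 genes for testing, so no member is missing from the results. The data are RNA-seq of cultured Lewis lung carcinoma cells (LLC), a mouse lung tumour line labelled as lung adenocarcinoma, in which the study asked what loss of CD47 changes in the tumour cells themselves. CD47 is a surface protein that signals to phagocytes not to engulf the cell. There were 3 lines with 3 libraries each: wild-type cells (WT) and the CD47 knockout (KO) clones E3 and E5, made with CRISPR-Cas9 and grown out from single cells. All lines grew in DMEM with fetal bovine serum, and libraries were directional, made from polyA RNA and sequenced in pairs. Each knockout genotype is 1 clone and the series also calls the WT cells clonal, so the effect of the genotype and differences between clones cannot be told apart. The study calls the libraries of a line independent biological replicates, with no further word in its methods on how their cultures were separated. The p-values below measure the spread between libraries of a line, pooled over all 3 lines.

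p53 is held at low levels by the ubiquitin ligase MDM2 and is stabilised when DNA is damaged or cells are otherwise stressed. It then binds paired decamer sequences near its target genes and activates programmes of cell cycle arrest, DNA repair, apoptosis and metabolic adjustment, and among its targets is Mdm2, which closes a negative feedback loop. Several p53 targets also respond to other stress pathways.

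The total count per library ran from 47574047 to 49621282 in WT, from 44257404 to 48672040 in KO E3 and from 47378308 to 55095219 in KO E5. At this depth the counting error of a member in 1 library was between 0.672% and 4.09%, which covers counting error only. These totals are above the reads per sample stated in the labels, and how read pairs were counted is not given in the sources used here. If a fragment was counted more than once, the counting error is larger than given, and the chi-square used below would lie above 1 for counting error alone. Values below are in CPM, the usual unit of counts relative to the library's total, after scaling between libraries by edgeR's TMM method. Tests are edgeR's quasi-likelihood test on all 3 lines in 1 fit, with p-values adjusted over all 14593 genes by the Benjamini-Hochberg method. A gene is called changed where the adjusted p is under 0.05, each log2 fold change is given with its standard error (SE) or its 95% interval, and a p that misses the threshold does not show that a gene was unchanged. Both clones are compared with the same WT libraries, so those comparisons are not independent of each other.

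Cd47 was checked first. Its level was 187, 179 and 182 CPM in WT replicates 1, 2 and 3, 47.4, 36.7 and 49.6 CPM in KO E3, and 15.5, 18.6 and 18.1 CPM in KO E5. Every knockout library was below every WT library, and every KO E5 library was below every KO E3 library. The log2 fold change against WT was -2.03 (SE 0.128, adjusted p = 4.9e-06) in KO E3 and -3.39 (SE 0.136, adjusted p = 1.07e-07) in KO E5, and that of KO E5 against KO E3 was -1.36 (SE 0.127, adjusted p = 2.76e-05). Neither clone was at 0 counts, and counts of RNA do not show how much protein was left. The study reports loss of the protein in its knockout lines by flow cytometry, immunoblotting and immunofluorescence.

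The cell label was checked against marker genes. Of 4 mesenchymal markers (Vim, Cdh2, Fn1, Zeb1) none was at 0, and Vim, the most abundant, lay between 4131 and 6833 CPM. Of 4 epithelial markers, Epcam had 0 counts in every library and Cdh1 had at most 6 counts in any library, while Krt8 and Krt18 were present. The summed epithelial level, mostly Krt18, differed by line: 450.5 to 458 CPM in WT, 127 to 198 CPM in KO E3 and 896 to 957 CPM in KO E5. The lung epithelial markers Nkx2-1 and Sftpc had 0 counts in every library and Napsa at most 13, so the lung origin in the label cannot be read from these genes. Markers of leukocytes summed to 2.66 to 3.47 CPM across the 9 libraries, with Cd68 the most abundant, and Ptprc had at most 2 counts. Lyz2 had 7 to 21 counts per library in WT and KO E3 and at most 2 in KO E5. The endothelial markers Pecam1 and Cdh5 had at most 4 and 5 counts. The fibroblast markers Pdgfra and Pdgfrb summed to 25.0 to 31.6 CPM in WT, 40.6 to 72.8 CPM in KO E3 and 16.5 to 19.7 CPM in KO E5. In bulk RNA, fewer cells of a kind and less RNA per cell cannot be told apart, and whether these marker levels bear on the p53 target genes was not tested.

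The libraries of a line were not equally alike. Over all tested genes, the scatter between replicates, as a chi-square per degree of freedom that would be near 1 for counting error alone, was lowest at 4.82 for WT replicates 2 and 3. It was highest for the pairs with KO E3 replicate 3, at 192 with replicate 1 and 232 with replicate 2. In that library the top 20 genes held 9.12% of all counts, against 7.22% to 7.96% in the other libraries. The members shared this unevenness: their median coefficient of variation was 4.93% in WT, 22.8% in KO E3 and 4.53% in KO E5, against 6.17%, 19.4% and 7.84% over all tested genes. Member calls and list counts that change without KO E3 replicate 3 are therefore given both ways.

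**Figure D1:**
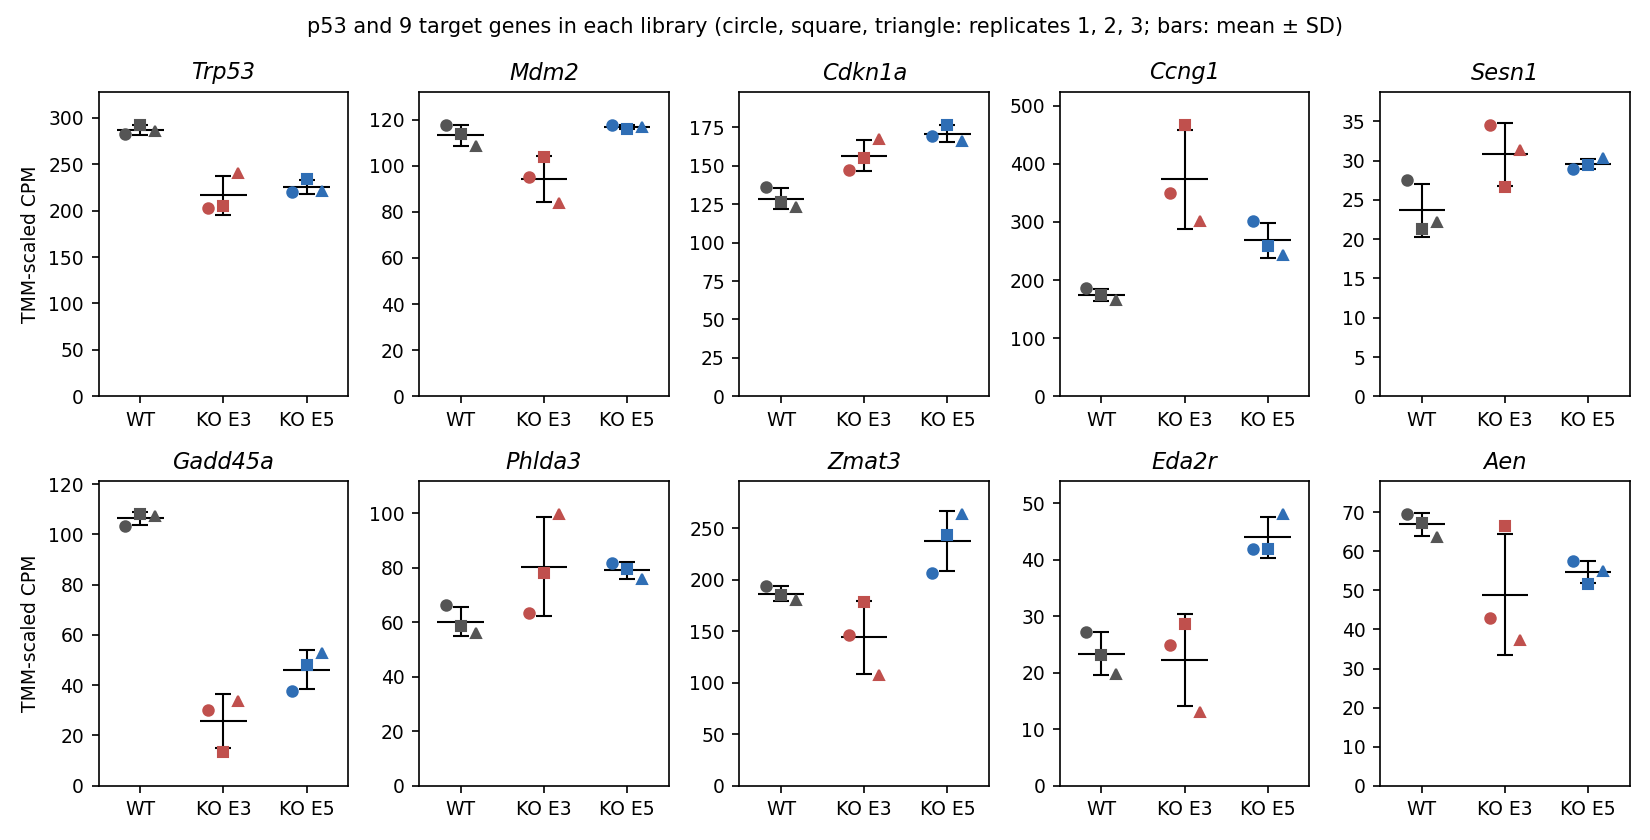
Level in CPM of each of the 10 members in all 9 libraries, grouped by line (WT, KO E3, KO E5), with a point for each library and bars for the line's mean ± SD. Gadd45a is lower and Ccng1 higher in every knockout library than in every WT library, and the KO E3 points are the most spread for most members.

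In KO E3 against WT, 3 of 10 members were called higher (Cdkn1a, Ccng1, Sesn1), where 15.7% of all tested genes were called higher. In the same comparison 2 were called lower (Trp53, Gadd45a), against 14.7% of all tested genes. That is 5 of 10 members in either direction beside 30.5% of all genes, and 2 of 10 (Ccng1, Gadd45a) with an absolute log2 fold change above 1 beside 9.82%. Ccng1 did not pass 1 without KO E3 replicate 2 (0.89). In KO E5 against WT, 3 of 10 were called higher (Cdkn1a, Ccng1, Eda2r) beside 8.96%, and 2 were called lower (Trp53, Gadd45a) beside 11.7%. That is 5 of 10 in either direction beside 20.6%, and 1 of 10 (Gadd45a) past an absolute log2 fold change of 1 beside 8.21%. In KO E5 against KO E3, 4 of 10 were called higher in KO E5 (Mdm2, Gadd45a, Zmat3, Eda2r) beside 14.7%, and 1 was called lower (Ccng1) beside 17.2%. That is 5 of 10 in either direction beside 31.9%, and 0 of 10 past an absolute log2 fold change of 1 beside 11%. The latter count depended on single libraries. Gadd45a passed 1 without KO E3 replicate 3 (1.09, adjusted p = 0.00308). Eda2r was called above 1 without KO E3 replicate 1 (1.07), KO E3 replicate 2 (1.21), KO E5 replicate 1 (1.01) or KO E5 replicate 2 (1.02).

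The median log2 fold change of the 10 members was -0.17 in KO E3 against WT, where that of all tested genes was 0.01. It was 0.33 in KO E5 against WT, where that of all tested genes was -0.0023. The first depended on single libraries, at 0.00034 without KO E3 replicate 3 and -0.32 without KO E3 replicate 2, while the second lay between 0.29 and 0.41 whichever library was left out. The members did not move as a block in either clone, and targets were called in both directions in each. With all libraries, Gadd45a was the only target called lower, in both clones. The number of members called also depended on single libraries. Without KO E3 replicate 3, KO E3 against WT had 3 members called higher and 3 lower with 43.2% of all genes called, and KO E5 against WT had 6 higher and 2 lower with 42.0% of all genes called. KO E5 against KO E3 then had 5 higher and 1 lower, with 44.1% of all genes called. The share of all genes called moved with the library left out as well.

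The counts that follow are the members called in KO E3 against WT, KO E5 against WT and KO E5 against KO E3, in that order, each set beside the share of all tested genes called in the same fit. Without WT replicate 1 they were 4, 3 and 2, beside 21.5%, 13.1% and 27.7%. Without WT replicate 2 they were 3, 1 and 2, beside 19.3%, 11.9% and 26.6%. The same counts came out without WT replicate 3, beside 20.1%, 12.9% and 27.1%, and without KO E5 replicate 2, beside 25.8%, 12.3% and 21.7%. Each of these 4 omissions lowered the share of all genes called in every comparison, as did leaving out KO E5 replicate 1 or KO E5 replicate 3. With KO E5 replicate 1 left out the counts were 3, 1 and 4, beside 27.4%, 12.8% and 24.6%. With KO E5 replicate 3 left out they were 3, 3 and 2, beside 27.6%, 16.0% and 22.8%. With KO E3 replicate 1 left out they were 5, 6 and 3, beside 27.0%, 20.7% and 29.1%. With KO E3 replicate 2 left out they were 7, 6 and 5, beside 31.8%, 22.3% and 34.7%, a little above the shares with all libraries.

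**Figure D2:**
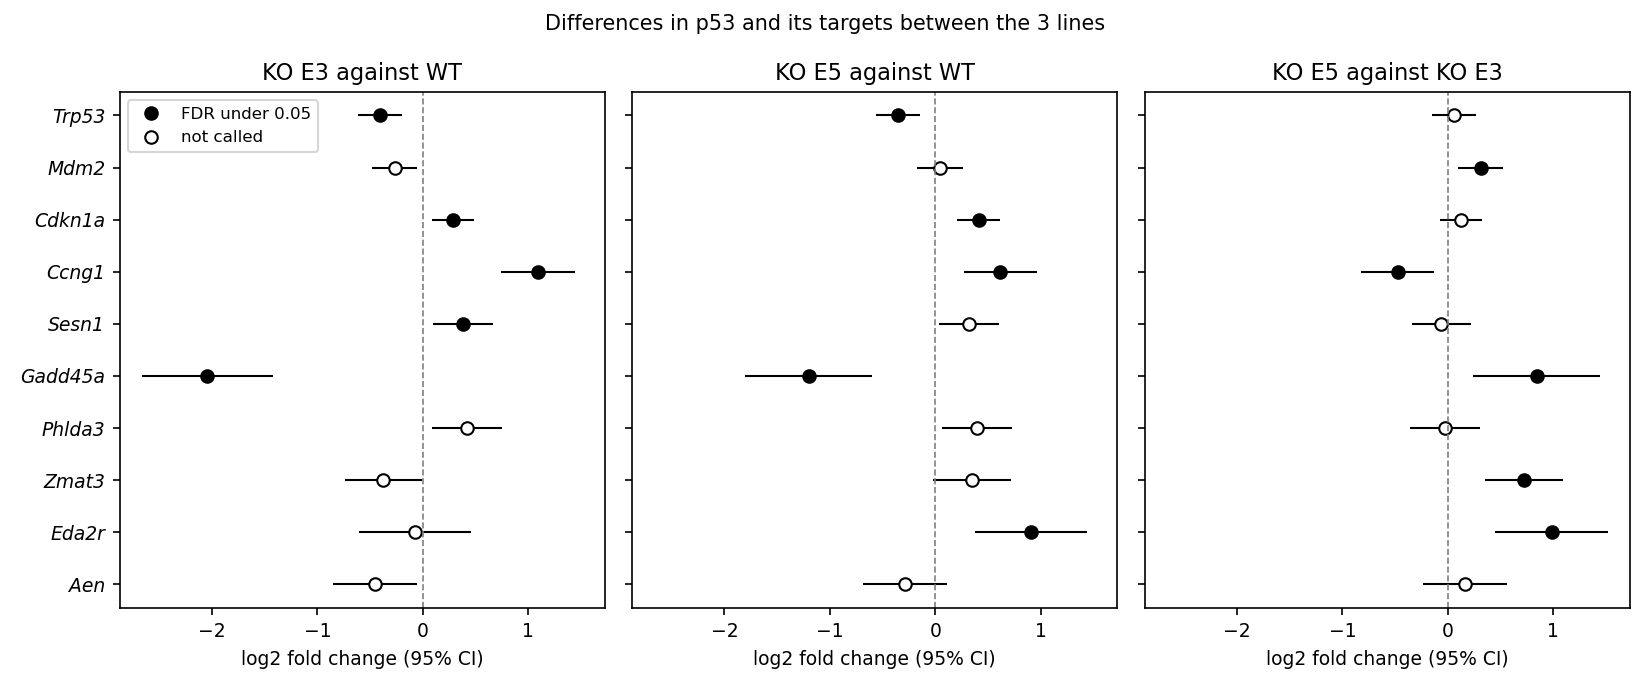
Log2 fold change of each member with its 95% interval in KO E3 against WT, KO E5 against WT and KO E5 against KO E3, with filled points for genes called at an adjusted p under 0.05. Gadd45a (-2.04 in KO E3, -1.20 in KO E5) and Ccng1 (1.09 in KO E3, 0.62 in KO E5) lie farthest from 0 on either side in KO E3.

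Levels can be compared between genes only per length, here as CPM per kilobase of the gene's annotated exon sequence (RPKM). The lengths used ran from 1774 bases for Gadd45a to 11442 bases for Zmat3, with 7379 bases for Trp53. The orders below hold for these lengths only, and other choices of length were not tested. Before division by length, Trp53 (287 CPM in WT) stood above Gadd45a (106 CPM in WT). In WT the order was Gadd45a at 60.0 RPKM, Ccng1 at 39.8, Trp53 at 38.9, Phlda3 at 23.3, Cdkn1a at 21.3, Zmat3 at 16.3, Mdm2 at 14.7, Aen at 5.89, Sesn1 at 4.70 and Eda2r at 3.12. Ccng1 and Trp53 overlapped between libraries in that order, as did Phlda3 and Cdkn1a, and the other neighbours were separate. In KO E3, Ccng1 stood first at 84.8 RPKM and Gadd45a was down at 14.5, where its libraries overlapped those of Zmat3 at 12.6. In KO E5, Ccng1 was again first at 61.0 RPKM, and Gadd45a at 26.1 overlapped its neighbours Cdkn1a at 28.2 and Zmat3 at 20.8. Eda2r was last in WT and had the lowest mean in KO E3 (2.97), where its libraries overlapped those of Aen (4.31), and in KO E5 it overlapped Sesn1 (5.86) at 5.87 RPKM.

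Trp53 itself (ENSMUSG00000059552.14, GRCm39 chr11:69471185-69482699, plus strand) was read first. Its level was 282, 292 and 286 CPM in WT replicates 1, 2 and 3, 203, 205 and 241 CPM in KO E3, and 220.1, 234 and 221 CPM in KO E5. Every library of both clones was below every WT library, and KO E3 replicate 3 was the highest knockout library, so the clones overlapped each other. The mean was 287 ± 5.23 CPM (SD, 3 libraries) in WT, 216 ± 21.1 CPM in KO E3 and 225 ± 7.40 CPM in KO E5. Trp53 fell in KO E3, with a log2 fold change of -0.41 (SE 0.0946, 95% interval -0.62 to -0.20, adjusted p = 0.00877). It also fell in KO E5, with a log2 fold change of -0.35 (SE 0.0945, 95% interval -0.56 to -0.14, adjusted p = 0.0248). The call in KO E3 held without each of the 9 libraries, with log2 values from -0.49 to -0.37. The call in KO E5 was lost without any 1 of the 3 WT or the 3 KO E5 libraries, where the adjusted p lay between 0.0675 and 0.0987, and with a replicate block (adjusted p = 0.0623). Between the clones the difference was 0.06 (95% interval -0.15 to 0.27, adjusted p = 0.682), and it was -0.0397 with upper-quartile scaling. It was 0.0127 without KO E3 replicate 1 and 0.15 (adjusted p = 0.0758) without KO E3 replicate 3. These are levels of the RNA, and the amount and activity of p53 protein were not measured.

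Mdm2 (ENSMUSG00000020184.16, GRCm39 chr10:117524780-117546663, minus strand) encodes the ligase that marks p53 for degradation. Its level was 118, 114 and 108 CPM in WT replicates 1, 2 and 3, 95.02, 104 and 83.8 CPM in KO E3, and 118, 116 and 117 CPM in KO E5. All 3 KO E3 libraries were below all WT and all KO E5 libraries, while KO E5 lay at the upper end of WT, its replicate 1 just above the highest WT library. The log2 fold change in KO E3 against WT was -0.27 (95% interval -0.48 to -0.05) with an adjusted p of 0.0619, short of the threshold. It passed without KO E3 replicate 2 (-0.34, adjusted p = 0.0259), without KO E3 replicate 3 (-0.19, adjusted p = 0.0346) and by DESeq2 (-0.27, adjusted p = 0.0352). In KO E5 against WT it was 0.05 (95% interval -0.17 to 0.26, adjusted p = 0.79). Mdm2 was called higher in KO E5 than in KO E3, with a log2 difference of 0.31 (SE 0.0973, 95% interval 0.10 to 0.53, adjusted p = 0.0326). That call was lost without any 1 of the WT or KO E5 libraries or KO E3 replicate 1 (adjusted p 0.0561 to 0.0961), and it was kept without KO E3 replicate 3 (0.24, adjusted p = 0.0107). It was also lost with upper-quartile scaling (0.23, adjusted p = 0.0671), with no filter on low counts (adjusted p = 0.0887), with only the 2 lines compared (adjusted p = 0.103) and with a replicate block (adjusted p = 0.059).

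Cdkn1a (ENSMUSG00000023067.15, GRCm39 chr17:29309950-29319701, plus strand) encodes p21, the inhibitor of cyclin-dependent kinases through which p53 arrests the cycle. Because p53 acts through a known binding sequence, the p53 response element was searched in the genome around the canonical start of each member, on both strands and without a spacer. A match is 20 bases long, lies within 5000 bases of the start and departs from the element by at most 1 base, never at the fixed C and G of either decamer. Such a match was found for 3 of 10 members, Cdkn1a, Ccng1 and Zmat3. Of all 21770 protein-coding genes 364 (1.67%) had one, and of the 12053 tested protein-coding genes 231 (1.92%). The sequences are shown because they are the stretches near these genes that hold the letters of the element, read from the GRCm39 assembly on the strand of the gene, with capitals for the 20 bases of the match and lower case for 10 bases on either side. The coordinates are those of the whole 40 bases shown. The Cdkn1a element, in the stretch at chr17:29309892-29309931 (plus strand), lies 2826 bases upstream of the canonical start and has 1 mismatch.
Cdkn1a: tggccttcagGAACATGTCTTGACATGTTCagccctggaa
The first Ccng1 element, in the stretch at chr11:40646279-40646318 (minus strand), lies 160 bases upstream of the start, and the second, in the stretch at chr11:40645753-40645792 (minus strand), lies in intron 1, 366 bases downstream of it. Each has 1 mismatch.
Ccng1 upstream: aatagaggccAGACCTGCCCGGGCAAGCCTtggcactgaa
Ccng1 intron: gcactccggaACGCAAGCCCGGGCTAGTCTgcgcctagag
The first Zmat3 element, in the stretch at chr3:32418470-32418509 (minus strand), lies in intron 1, 1418 bases downstream of the start, and has 0 mismatches, as 42 of all 21770 protein-coding genes (0.193%) have in this window. The second, in the stretch at chr3:32424290-32424329 (minus strand), lies 4402 bases upstream and has 1 mismatch.
Zmat3 intron: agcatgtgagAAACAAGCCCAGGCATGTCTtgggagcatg
Zmat3 upstream: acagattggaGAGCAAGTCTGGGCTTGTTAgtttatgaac
A match describes letters only and is not evidence of binding. For the other members, no match means only that these letters are not in this window.

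The level of Cdkn1a was 136, 126 and 123 CPM in WT replicates 1, 2 and 3, 147, 155 and 167 CPM in KO E3, and 169, 177 and 166 CPM in KO E5. Every library of both clones was above every WT library, and the clones overlapped each other at KO E3 replicate 3. The mean was 129 ± 6.99 CPM in WT, 156 ± 10.1 CPM in KO E3 and 171 ± 5.34 CPM in KO E5. Cdkn1a rose in KO E3 by 0.28 on the log2 scale (SE 0.0902, 95% interval 0.08 to 0.48, adjusted p = 0.037). This call was lost without any 1 of the WT libraries, the KO E5 libraries or KO E3 replicate 2, where the adjusted p lay between 0.0529 and 0.151. It was also lost with no filter on low counts (adjusted p = 0.139), with only the 2 lines compared (adjusted p = 0.0937) and with a replicate block (adjusted p = 0.0911), and it was kept without KO E3 replicate 3 (0.23, adjusted p = 0.0175) and without KO E3 replicate 1. Cdkn1a rose in KO E5 by 0.41 (SE 0.0903, 95% interval 0.21 to 0.61, adjusted p = 0.00931), a call lost without WT replicate 2, WT replicate 3 or KO E5 replicate 2 (adjusted p 0.0553 to 0.0591). The difference between the clones was 0.13 (95% interval -0.07 to 0.33, adjusted p = 0.313), and it passed only without KO E3 replicate 3 (0.19, adjusted p = 0.0468).

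Ccng1 (ENSMUSG00000020326.8, GRCm39 chr11:40639379-40646138, minus strand), with both elements above, encodes cyclin G1, which recruits a phosphatase to MDM2. Its level was 186, 175 and 165 CPM in WT replicates 1, 2 and 3, 350.2, 467 and 302 CPM in KO E3, and 302, 259 and 244 CPM in KO E5. Every knockout library was above every WT library, KO E3 replicate 2 stood far above the rest, and KO E3 replicate 3 was level with KO E5 replicate 1. The mean was 175 ± 10.4 CPM in WT, 373 ± 85.3 CPM in KO E3 and 268 ± 30.1 CPM in KO E5. Ccng1 rose in KO E3 by 1.09 on the log2 scale (SE 0.157, 95% interval 0.74 to 1.44, adjusted p = 0.000624), and the call held without each of the 9 libraries, with values from 0.89 to 1.22. It rose in KO E5 by 0.62 (SE 0.155, 95% interval 0.27 to 0.96, adjusted p = 0.0183). That call was lost without any 1 of the WT libraries, KO E5 replicate 1 or KO E5 replicate 2, where the adjusted p lay between 0.0501 and 0.0882. Between the clones Ccng1 was lower in KO E5 by a log2 difference of -0.47 (SE 0.155, 95% interval -0.82 to -0.13, adjusted p = 0.0393), although their libraries overlapped. Among the 9 omissions of a library, this call was kept only without KO E3 replicate 3 (-0.60, adjusted p = 0.00166) or KO E5 replicate 1 (-0.57, adjusted p = 0.0439). Without any 1 of the other 7 libraries the adjusted p lay between 0.0571 and 0.14, and without KO E3 replicate 2 the difference shrank to -0.28. With only the 2 lines compared the adjusted p was 0.095.

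Gadd45a (ENSMUSG00000036390.9, GRCm39 chr6:67012080-67014390, minus strand) encodes a small stress protein that binds PCNA and activates stress kinases, and it is induced by p53 as well as by ATF4 and other factors. Its level was 104, 108 and 107 CPM in WT replicates 1, 2 and 3, 30.1, 13.5 and 33.8 CPM in KO E3, and 37.6, 48.2 and 52.9 CPM in KO E5. The 3 lines were fully separate, with WT the highest and KO E3 the lowest, and KO E3 replicate 2 the lowest library of all. The mean was 106 ± 2.48 CPM in WT, 25.8 ± 10.8 CPM in KO E3 and 46.2 ± 7.84 CPM in KO E5. Gadd45a changed most among the members in both clones, opposite in sign to Cdkn1a and Ccng1. In KO E3 its log2 fold change was -2.04 (SE 0.279, 95% interval -2.66 to -1.42, adjusted p = 0.000471), a call that held without each of the 9 libraries with values from -2.29 to -1.74. In KO E5 it was -1.20 (SE 0.272, 95% interval -1.81 to -0.60, adjusted p = 0.0106), a call lost only without KO E5 replicate 1 (-1.08, adjusted p = 0.0532). The level in KO E5 was higher than in KO E3 by 0.84 (SE 0.272, 95% interval 0.24 to 1.45, adjusted p = 0.0376). This difference was not called without any 1 of the WT libraries, KO E5 replicate 2 or KO E5 replicate 3 (adjusted p 0.0547 to 0.121), with upper-quartile scaling (0.74, adjusted p = 0.0752) or with only the 2 lines compared (adjusted p = 0.0894). It was 0.54 (adjusted p = 0.0174) without KO E3 replicate 2.

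Sesn1 (ENSMUSG00000038332.14, GRCm39 chr10:41685931-41784420, plus strand) encodes sestrin 1, which restrains the growth regulator mTORC1. Its level was 27.5, 21.3 and 22.2 CPM in WT replicates 1, 2 and 3, 34.6, 26.6 and 31.3 CPM in KO E3, and 29.0, 29.4 and 30.3 CPM in KO E5. WT replicate 1 overlapped the KO E3 range at replicate 2, while all KO E5 libraries were above WT. Sesn1 was called higher in KO E3, by 0.38 (SE 0.127, 95% interval 0.10 to 0.66, adjusted p = 0.0455). The call was lost without WT replicate 2, WT replicate 3, KO E3 replicate 1 or any 1 of the KO E5 libraries, where the adjusted p lay between 0.0684 and 0.181, with no filter on low counts (adjusted p = 0.0675) and with only the 2 lines compared (adjusted p = 0.103). In KO E5 the log2 fold change was 0.32 (95% interval 0.04 to 0.60) with an adjusted p of 0.106, and it passed without KO E3 replicate 3 (0.32, adjusted p = 0.0335) and with only the 2 lines compared (0.32, adjusted p = 0.0147). The difference between the clones was -0.06 (95% interval -0.34 to 0.22, adjusted p = 0.75), and it was 0.029 without KO E3 replicate 1.

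Zmat3 (ENSMUSG00000027663.14, GRCm39 chr3:32388941-32419827, minus strand), whose first intron holds the element without a mismatch, encodes a zinc finger protein that binds RNA and regulates splicing. Its level was 194, 185 and 180.1 CPM in WT replicates 1, 2 and 3, 146, 178 and 108 CPM in KO E3, and 207, 243 and 264 CPM in KO E5. Every KO E3 library was below WT, KO E3 replicate 2 only just so, and every KO E5 library was above WT. Against WT the log2 fold change was -0.37 (95% interval -0.74 to -0.01, adjusted p = 0.116) in KO E3 and 0.35 (95% interval -0.02 to 0.72, adjusted p = 0.168) in KO E5, so neither passed the threshold. The first passed without KO E3 replicate 2 (-0.56, adjusted p = 0.0200), and the second without KO E3 replicate 3 (0.36, adjusted p = 0.0103) and with only the 2 lines compared (0.35, adjusted p = 0.00454). Without KO E3 replicate 3 the first was -0.20 (adjusted p = 0.147). The difference between the clones was called, at 0.72 (SE 0.166, 95% interval 0.35 to 1.09, adjusted p = 0.00796), and held without each of the 9 libraries with values from 0.56 to 0.91.

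Eda2r (ENSMUSG00000034457.11, GRCm39 chrX:96377446-96420822, minus strand) encodes a receptor of the tumour necrosis factor receptor family that binds ectodysplasin A2. Its level was 27.2, 23.2 and 19.7 CPM in WT replicates 1, 2 and 3, 25.0, 28.6 and 13.1 CPM in KO E3, and 41.9, 41.9 and 48.2 CPM in KO E5. All KO E5 libraries were above every other library, while KO E3 ran from above to below WT, with replicate 3 the lowest library. In KO E3 the log2 fold change against WT was -0.07 (95% interval -0.60 to 0.46, adjusted p = 0.85). Its sign turned without KO E3 replicate 3 (0.19, adjusted p = 0.235) and without WT replicate 1 (0.05, adjusted p = 0.92). Eda2r rose in KO E5 by 0.91 on the log2 scale (SE 0.24, 95% interval 0.38 to 1.44, adjusted p = 0.0224). That call was lost without WT replicate 2, WT replicate 3 or any 1 of the KO E5 libraries (adjusted p 0.0587 to 0.0963). It was higher in KO E5 than in KO E3 by 0.98 (SE 0.24, 95% interval 0.45 to 1.52, adjusted p = 0.0106), which held without each of the 9 libraries with values from 0.72 to 1.21.

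Phlda3 (ENSMUSG00000041801.6, GRCm39 chr1:135693857-135696874, plus strand) encodes a small protein that blocks recruitment of the kinase AKT to the membrane. Its level was 66.3, 58.4 and 55.9 CPM in WT replicates 1, 2 and 3, 63.5, 78.0 and 99.7 CPM in KO E3, and 81.7, 79.6 and 75.7 CPM in KO E5. KO E3 overlapped WT at replicate 1 and held the highest library at replicate 3, and all KO E5 libraries were above WT. The log2 fold change was 0.42 in KO E3 (95% interval 0.09 to 0.75, adjusted p = 0.0578) and 0.39 in KO E5 (95% interval 0.06 to 0.72, adjusted p = 0.0917). Without KO E3 replicate 1 both passed (0.56 with adjusted p = 0.0123, and 0.39 with adjusted p = 0.0427). Without KO E3 replicate 3 the first was 0.23 (adjusted p = 0.0759) and the second passed at 0.40 (adjusted p = 0.00323). The first also passed by DESeq2 (0.42, adjusted p = 0.0375) and with upper-quartile scaling (0.50, adjusted p = 0.0443), and the second with only the 2 lines compared (0.40, adjusted p = 0.000889). The difference between the clones was -0.03 (95% interval -0.36 to 0.31, adjusted p = 0.916), and its sign turned without KO E3 replicate 3 (0.17) and without KO E5 replicate 3 (0.01).

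Aen (ENSMUSG00000030609.19, GRCm39 chr7:78545602-78560957, plus strand) encodes a nuclease that takes part in apoptosis. Its level was 69.6, 67.4 and 63.7 CPM in WT replicates 1, 2 and 3, 43.0, 66.6 and 37.3 CPM in KO E3, and 57.4, 51.7 and 54.9 CPM in KO E5. KO E3 replicate 2 lay within the WT range while the other KO E3 libraries were the lowest of all, and every KO E5 library was below WT. The log2 fold change was -0.45 in KO E3 (95% interval -0.85 to -0.05, adjusted p = 0.0837) and -0.29 in KO E5 (95% interval -0.69 to 0.11, adjusted p = 0.296). Without KO E3 replicate 2 these were -0.74 (adjusted p = 0.00105) and -0.29 (adjusted p = 0.04996), and both passed. The first also passed with no filter on low counts (-0.46, adjusted p = 0.0484), and the second with only the 2 lines compared (-0.29, adjusted p = 0.00234). Without KO E3 replicate 3 the first was -0.29 (adjusted p = 0.112). The difference between the clones was 0.16 (95% interval -0.24 to 0.56, adjusted p = 0.533), and it passed without KO E3 replicate 2 (0.45, adjusted p = 0.0108) and was 0.0054 (adjusted p = 0.98) without KO E3 replicate 3.

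Within a line the members did not follow 1 order of libraries. In WT, replicate 1 was the highest library for 8 of 10 members and the lowest for Trp53 and Gadd45a. In KO E3, replicate 2 was the highest and replicate 3 the lowest for 5 members, Mdm2, Ccng1, Zmat3, Eda2r and Aen. Replicate 3 was the highest for 4 others, Trp53, Cdkn1a, Gadd45a and Phlda3. Targets of p53 thus stood on both sides of the unevenness within KO E3.

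**Figure D3:**
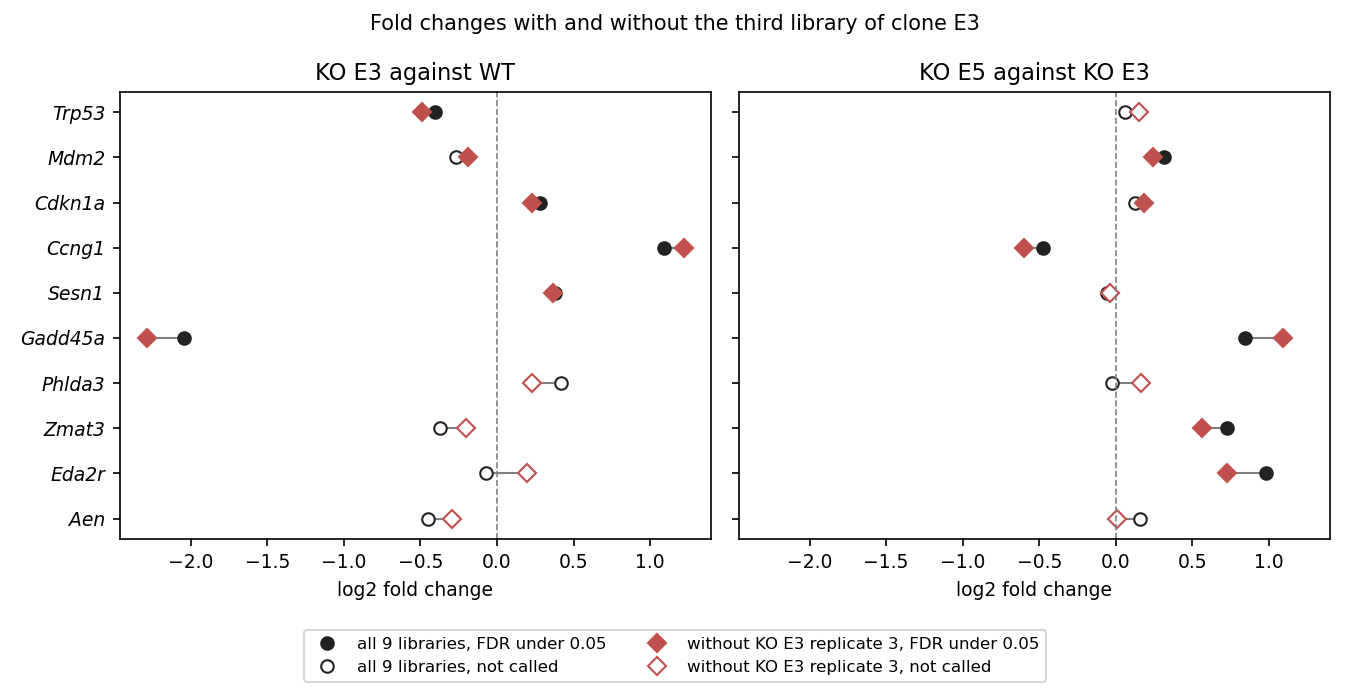
Log2 fold change of each member in KO E3 against WT and in KO E5 against KO E3, with all 9 libraries (circles) and without KO E3 replicate 3 (diamonds), filled where the adjusted p is under 0.05. The sign turns for Eda2r in KO E3 against WT (-0.07 to 0.19) and for Phlda3 between the clones (-0.03 to 0.17), and Gadd45a in KO E3 goes from -2.04 to -2.29.

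The genes that control p53 were read next, from a list of 24 of which 21 were tested. In KO E3 against WT 0 were called higher and 2 lower, where 15.7% and 14.7% of all tested genes were, and in KO E5 against WT 0 higher and 1 lower, where 8.96% and 11.7% were. Between the clones 2 were called higher in KO E5 and 2 lower, where 14.7% and 17.2% of all genes were. Ppp1r13b, which encodes the p53 cofactor ASPP1, averaged 12.3 ± 0.512 CPM in WT, 7.74 ± 0.893 CPM in KO E3 and 13.9 ± 1.46 CPM in KO E5. It fell in KO E3 (-0.67, SE 0.124, adjusted p = 0.00262) and was higher in KO E5 than in KO E3 (0.84, SE 0.124, adjusted p = 0.000634). Rchy1, which encodes the p53 ubiquitin ligase PIRH2, averaged 34.2 ± 1.22 CPM in WT, 38.2 ± 5.73 CPM in KO E3 and 25.2 ± 0.796 CPM in KO E5. It fell in KO E5 (-0.44, SE 0.112, adjusted p = 0.0192), a call lost without WT replicate 1, WT replicate 2 or any 1 of the KO E5 libraries (adjusted p up to 0.0713). Usp7, which encodes an enzyme that removes ubiquitin from MDM2 and p53, was higher in KO E5 than in KO E3 (0.56, SE 0.146, adjusted p = 0.0152), a call lost without KO E5 replicate 1 (adjusted p = 0.056) or with only the 2 lines compared (adjusted p = 0.0502). The regulators called without KO E3 replicate 3 were 3 higher and 4 lower in KO E3, 5 higher and 3 lower in KO E5, and 4 higher and 2 lower between the clones, in a fit that called 43.2%, 42.0% and 44.1% of all genes.

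A further 74 direct p53 targets were grouped by role, and 68 were tested. In KO E3 against WT, 22 (32.4%) were called higher and 14 (20.6%) lower, where 15.7% and 14.7% of all tested genes were. In KO E5 against WT, 9 (13.2%) were called higher and 6 (8.82%) lower, where 8.96% and 11.7% of all genes were. Their median log2 fold change was 0.13 in KO E3 and 0.06 in KO E5, beside 0.01 and -0.0023 for all genes. Targets were thus called in both directions in both clones, as among the 10 members, where Gadd45a was the only target called lower. Of 11 tested arrest and senescence targets, 2 were higher and 2 lower in KO E3, and 1 was higher and 3 lower in KO E5. Plk3, a stress kinase of the polo-like family, averaged 63.6 ± 6.28 CPM in WT, 33.5 ± 6.04 CPM in KO E3 and 29.4 ± 2.27 CPM in KO E5. It fell in KO E3 (-0.92, SE 0.141, adjusted p = 0.000887) and in KO E5 (-1.11, SE 0.142, adjusted p = 0.000336). Its relative Plk2 fell only in KO E5 (-1.19, SE 0.126, adjusted p = 9.85e-05), with a tested difference between the clones of -1.29 (SE 0.126, adjusted p = 3.99e-05). The long noncoding RNA Trp53cor1 was higher in KO E5 than in KO E3 (0.88, SE 0.275, adjusted p = 0.033), a call lost without any 1 of the WT libraries, KO E5 replicate 2 or KO E5 replicate 3 or with only the 2 lines compared (adjusted p 0.0513 to 0.112). Ptprv, a phosphatase gene, had 8 to 20 counts per library in WT and KO E3 and 3 in each KO E5 library.

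Of 16 tested apoptosis targets, 6 were higher and 4 lower in KO E3, while 1 was higher and 1 lower in KO E5. For this and the other roles in this paragraph, 15.7% of all tested genes were called higher and 14.7% lower in KO E3. In KO E5 these shares were 8.96% and 11.7%. Pmaip1, which encodes the BCL2 antagonist NOXA, averaged 1.74 ± 0.198 CPM in WT, 4.86 ± 0.297 CPM in KO E3 and 1.80 ± 0.128 CPM in KO E5. It rose in KO E3 (1.48, SE 0.148, adjusted p = 7.73e-05) and was lower in KO E5 than in KO E3 (-1.43, SE 0.148, adjusted p = 5.78e-05). Casp1, an inflammatory caspase, had 72 to 85 counts per library in WT, 128 to 200 in KO E3 and 2 to 9 in KO E5. The death receptor Fas had 4 to 7 counts per library in WT, 20 to 28 in KO E3 and 5 to 13 in KO E5. Of 9 DNA repair and nucleotide targets, 3 were higher and 2 lower in KO E3, and 1 was higher and 0 lower in KO E5. Polh, a polymerase that copies past damaged bases, rose in KO E3 (0.83, SE 0.115, adjusted p = 0.000509) and was lower in KO E5 than in KO E3 (-0.64, SE 0.114, adjusted p = 0.00206). Pcna, the sliding clamp of replication, rose in KO E3 (0.60, SE 0.143, adjusted p = 0.00986) and was lower in KO E5 than in KO E3 (-0.53, SE 0.143, adjusted p = 0.0176), the latter lost without KO E5 replicate 2 or KO E5 replicate 3 or with only the 2 lines compared (adjusted p up to 0.0764). Polk, another polymerase of damaged DNA, was higher in KO E5 than in KO E3 (0.51, SE 0.139, adjusted p = 0.0187), a call lost under the same omissions (adjusted p up to 0.0614). Of 15 metabolism and antioxidant targets, 6 were higher and 2 lower in KO E3, and 4 were higher and 1 lower in KO E5.

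Ephx1, which encodes an epoxide hydrolase, averaged 11.2 ± 1.19 CPM in WT, 29.1 ± 3.69 CPM in KO E3 and 22.1 ± 0.253 CPM in KO E5. It rose in KO E3 (1.37, SE 0.122, adjusted p = 4.01e-05) and in KO E5 (0.98, SE 0.122, adjusted p = 0.000293). Ak1, an adenylate kinase, also rose in KO E3 (1.32, SE 0.123, adjusted p = 5.12e-05) and in KO E5 (0.71, SE 0.121, adjusted p = 0.0023). Dglucy, which encodes a D-glutamate cyclase, rose by 0.94 in KO E3 (SE 0.141, adjusted p = 0.000799) and by 0.99 in KO E5 (SE 0.141, adjusted p = 0.000699). Tigar, which lowers glycolytic flux, fell in KO E3 alone (-0.89, SE 0.136, adjusted p = 0.000935), and the difference between the clones was 0.90 (SE 0.136, adjusted p = 0.000718). Dram1, which takes part in autophagy, rose in KO E3 (1.72, SE 0.193, adjusted p = 0.000155), with a difference between the clones of -1.49 (SE 0.19, adjusted p = 0.000241). Gpx1, a glutathione peroxidase, was lower in KO E5 than in KO E3 (-0.65, SE 0.169, adjusted p = 0.014), a call lost without KO E5 replicate 3 (adjusted p = 0.0629).

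Of 17 tested signalling and feedback targets, 5 were higher and 4 lower in KO E3, and 2 were higher and 1 lower in KO E5. Of all tested genes, 15.7% were called higher and 14.7% lower in KO E3, and 8.96% and 11.7% in KO E5. Pvt1, a long noncoding RNA next to Myc, averaged 194 ± 10.1 CPM in WT, 88.7 ± 5.48 CPM in KO E3 and 215 ± 6.65 CPM in KO E5. It fell in KO E3 (-1.13, SE 0.0907, adjusted p = 2.13e-05), with a difference between the clones of 1.28 (SE 0.091, adjusted p = 4.04e-06). Sulf2, a sulfatase that edits heparan sulfate, rose in KO E5 (0.79, SE 0.13, adjusted p = 0.00175). Its call in KO E3 (0.41, SE 0.129, adjusted p = 0.035) was lost without any 1 library but KO E3 replicate 3, with only the 2 lines compared or with a replicate block (adjusted p up to 0.113). Notch1, a receptor, rose in KO E3 (0.85, SE 0.239, adjusted p = 0.0224), a call lost without WT replicate 2, WT replicate 3, KO E3 replicate 1 or KO E3 replicate 2 or with only the 2 lines compared (adjusted p up to 0.0824). Its difference between the clones was -0.75 (SE 0.239, adjusted p = 0.0356), lost without any 1 library but KO E3 replicate 3 or with only the 2 lines compared (adjusted p up to 0.112). Gdf15, a secreted p53 and stress target, had 105 to 129 counts per library in WT, 2 to 8 counts in KO E3 and 53 to 132 counts in KO E5.

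The counts by role moved without KO E3 replicate 3, in a fit that called 43.2% of all genes in KO E3 against WT and 42.0% in KO E5 against WT. In KO E3 against WT they were then 3 higher and 3 lower for arrest, 7 and 5 for apoptosis, 3 and 2 for repair, 7 and 4 for metabolism, and 8 and 5 for signalling. In KO E5 against WT they were 3 and 3 for arrest, 4 and 2 for apoptosis, 3 and 2 for repair, 5 and 3 for metabolism, and 4 and 3 for signalling. In this fit genes were called in both directions in each role and clone, whereas with all 9 libraries 0 repair targets were called lower in KO E5.

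p53 also represses cell cycle genes through p21 and the DREAM complex, and a list of 32 such genes was tested. Of these, 8 were called higher and 1 lower in KO E3 against WT, where 15.7% and 14.7% of all tested genes were. In KO E5 against WT 2 were called higher and 0 lower, where 8.96% and 11.7% of all genes were. Their median log2 fold change was 0.26 in KO E3 and 0.18 in KO E5, beside 0.01 and -0.0023 for all tested genes. In these comparisons 27 and 29 of the 32 values were above 0, beside 51.1% and 49.8% of all tested genes, although most genes of the list were not called. How these values relate to Cdkn1a was not tested. Kif20a, a kinesin needed for cell division, averaged 147 ± 15.6 CPM in WT, 240 ± 23.3 CPM in KO E3 and 217 ± 32.7 CPM in KO E5. It rose in KO E3 (0.71, SE 0.135, adjusted p = 0.00312) and in KO E5 (0.56, SE 0.135, adjusted p = 0.0143), the latter lost without WT replicate 1, KO E5 replicate 1 or KO E5 replicate 2 (adjusted p up to 0.0755). Ccnb2, a mitotic cyclin, rose only in KO E3 (0.73, SE 0.13, adjusted p = 0.00205), with a difference between the clones of -0.67 (SE 0.13, adjusted p = 0.00336). Mcm2, a subunit of the replicative helicase, fell in KO E3 (-0.46, SE 0.0978, adjusted p = 0.00558) and was the 1 gene of the list called lower there. It was higher in KO E5 than in KO E3 (0.38, SE 0.0978, adjusted p = 0.0134), a call lost without KO E5 replicate 1 or with only the 2 lines compared (adjusted p up to 0.0587). Aurkb, a mitotic kinase, rose in KO E3 (0.44, SE 0.107, adjusted p = 0.0117), a call lost without WT replicate 1 or WT replicate 2 (adjusted p up to 0.0553). Its difference between the clones was -0.36 (SE 0.107, adjusted p = 0.0266), lost without WT replicate 2, KO E5 replicate 2 or KO E5 replicate 3, with only the 2 lines compared or with a replicate block (adjusted p up to 0.109). The list had 17 genes higher and 1 lower in KO E3, and 11 higher and 0 lower in KO E5, without KO E3 replicate 3, where 43.2% and 42.0% of all genes were called in either direction.

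Other inhibitors of cyclin-dependent kinases were read beside Cdkn1a, and 3 of 6 were tested. Cdkn2a, whose ARF product restrains MDM2, had 0 counts in all 9 libraries, as did its neighbour Cdkn2b, and both are named after their values were seen. Cdkn2c averaged 33.8 ± 1.98 CPM in WT, 77.7 ± 12.9 CPM in KO E3 and 39.6 ± 3.95 CPM in KO E5. It rose in KO E3 (1.20, SE 0.131, adjusted p = 0.000136) and was lower in KO E5 than in KO E3 (-0.97, SE 0.131, adjusted p = 0.000345). Cdkn2d likewise rose in KO E3 (1.25, SE 0.205, adjusted p = 0.00131), with a difference between the clones of -1.13 (SE 0.204, adjusted p = 0.00214). Of the 3 tested, 2 were called higher in KO E3, 0 higher in KO E5 and 2 lower between the clones, where 15.7%, 8.96% and 17.2% of all tested genes were. These counts were 3, 2 and 2 without KO E3 replicate 3, in a fit that called 43.2%, 42.0% and 44.1% of all genes in either direction.

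Relatives of the members within the same gene families were read as well, and 11 of 18 were tested. Of these, 5 were called higher and 2 lower in KO E3 against WT, in KO E5 against WT 2 higher and 2 lower, and between the clones 2 higher and 4 lower. All tested genes called higher and lower were 15.7% and 14.7% in the first comparison, 8.96% and 11.7% in the second, and 14.7% and 17.2% in the third. Leaving out KO E3 replicate 3 gave 6 higher and 2 lower in KO E3, 5 higher and 2 lower in KO E5, and 3 higher and 4 lower between the clones, in a fit that called 43.2%, 42.0% and 44.1% of all genes in either direction. Ccng2, the relative of Ccng1, averaged 24.6 ± 3.86 CPM in WT, 49.1 ± 8.08 CPM in KO E3 and 38.5 ± 4.19 CPM in KO E5. It rose in KO E3 (1.00, SE 0.155, adjusted p = 0.000991) and in KO E5 (0.65, SE 0.154, adjusted p = 0.0137), the latter lost without WT replicate 2, WT replicate 3, KO E5 replicate 1 or KO E5 replicate 2 (adjusted p up to 0.0726). Sesn2, the relative of Sesn1 and itself a target of ATF4, averaged 195 ± 16.4 CPM in WT, 72.1 ± 13.7 CPM in KO E3 and 121 ± 7.76 CPM in KO E5. It fell in KO E3 (-1.44, SE 0.138, adjusted p = 5.84e-05) and in KO E5 (-0.69, SE 0.135, adjusted p = 0.00517), opposite in direction to Sesn1 in KO E3. Sesn3 had 0 counts in all 3 KO E5 libraries, against 6.16 ± 0.672 CPM in WT and 14.6 ± 5.69 CPM in KO E3. With a floor of 3 counts per library, that is at least 94.7-fold lower than WT and at least 225-fold lower than KO E3. Gadd45g, a relative of Gadd45a, rose in KO E3 (1.80, SE 0.21, adjusted p = 0.000197) while Gadd45a fell there. Zmat1, a relative of Zmat3, rose in KO E3 (2.04, SE 0.193, adjusted p = 5.49e-05).

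Because Gadd45a is also a target of ATF4, a list of 14 ATF4 and stress genes was read beside it, all of them tested. In KO E3 against WT 0 were called higher and 12 lower, in KO E5 against WT 0 higher and 7 lower, and in KO E5 against KO E3 13 higher and 0 lower. In either direction, 30.5%, 20.6% and 31.9% of all tested genes were called in these comparisons. The median log2 fold change of the list was -1.53 in KO E3, -0.33 in KO E5 and 1.14 between the clones. Atf3 averaged 44.2 ± 4.995 CPM in WT, 3.16 ± 0.981 CPM in KO E3 and 10.6 ± 2.07 CPM in KO E5. It fell in KO E3 (-3.81, SE 0.237, adjusted p = 4.77e-06) and in KO E5 (-2.06, SE 0.215, adjusted p = 8.99e-05). Ppp1r15a, also known as Gadd34, fell in KO E3 (-3.29, SE 0.226, adjusted p = 8.59e-06) and in KO E5 (-2.15, SE 0.215, adjusted p = 6.47e-05). Ddit3 fell in KO E3 (-2.53, SE 0.351, adjusted p = 0.000519) and in KO E5 (-1.16, SE 0.334, adjusted p = 0.0332), the latter lost without any 1 of the WT libraries, KO E5 replicate 1 or KO E5 replicate 2 (adjusted p up to 0.117). Trib3, a pseudokinase, fell in KO E3 (-2.65, SE 0.297, adjusted p = 0.000155), and its call in KO E5 (-0.91, SE 0.281, adjusted p = 0.0445) was lost without any 1 of the WT or KO E5 libraries, with upper-quartile scaling, with at least 10 counts in every library or with a replicate block (adjusted p up to 0.16). Slc7a11, the cystine transporter that p53 represses and ATF4 activates, fell only in KO E3 (-2.08, SE 0.233, adjusted p = 0.000154), with a difference between the clones of 2.17 (SE 0.233, adjusted p = 7.78e-05). Gadd45a was lowest in KO E3 and intermediate in KO E5, as the median of this list was, and their relation was not tested. With KO E3 replicate 3 left out, the list had 0 higher and 12 lower in KO E3, 1 higher and 7 lower in KO E5, and 13 higher and 0 lower between the clones, in a fit that called 43.2%, 42.0% and 44.1% of all genes.

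**Figure D4:**
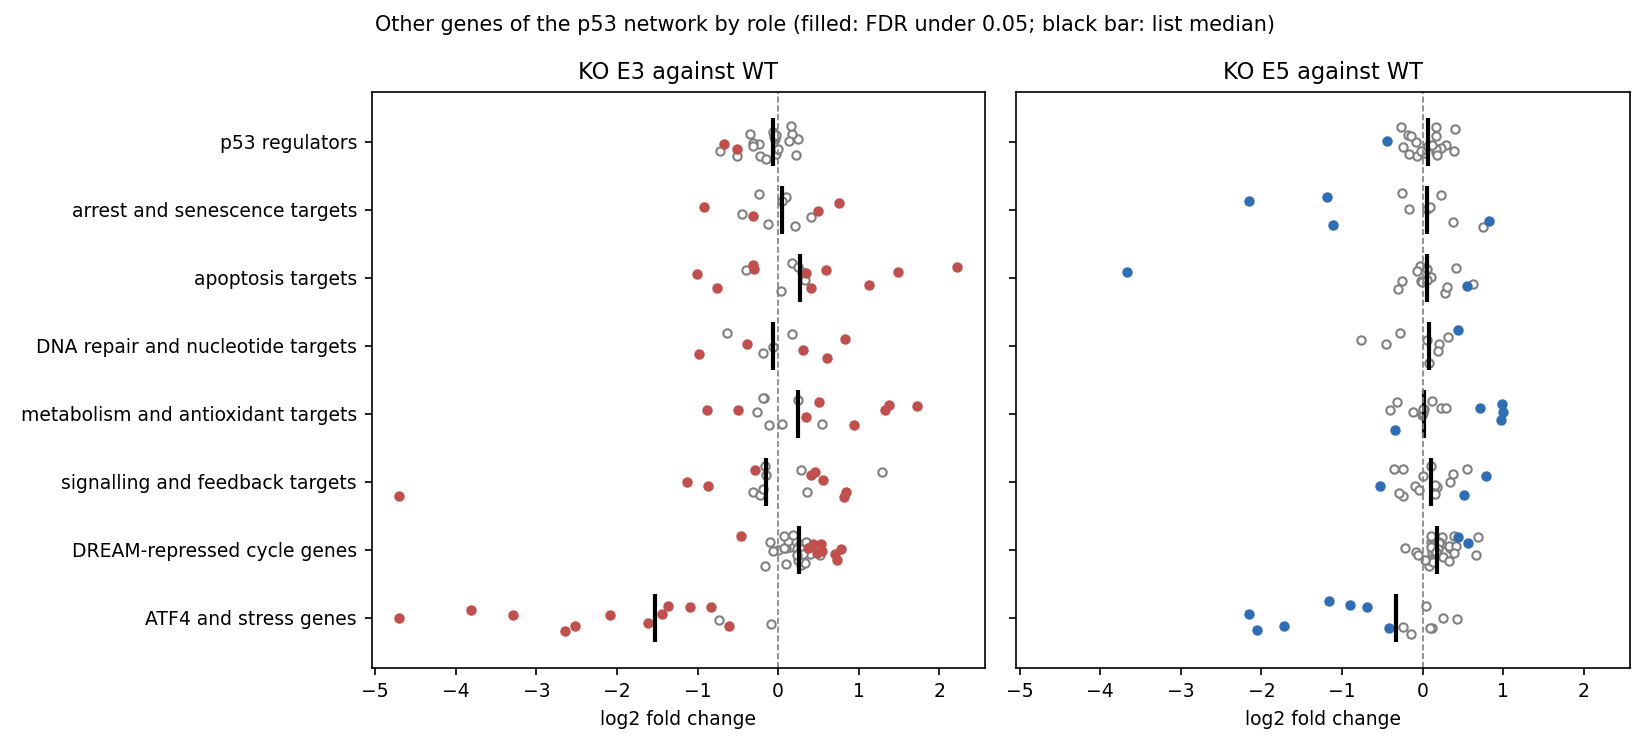
Log2 fold change of each tested gene in 8 lists by role, in KO E3 against WT and KO E5 against WT, with filled points for an adjusted p under 0.05 and a black bar for the list's median; Gdf15 in KO E3 and Casp1 in KO E5, each the point farthest to the left in its panel, rest on under 10 counts per library in that line. The lists of p53 targets have filled points on both sides of 0 in KO E3, while the 14 ATF4 and stress genes have 0 higher and 12 lower there.

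The genes around each member on the chromosome were also read, a measure chosen after the values were seen. For each member the median log2 fold change of the 40 nearest tested genes, 20 on each side, was set beside the member's own value. In KO E3 against WT these medians ran from -0.39 (Sesn1) to 0.25 (Ccng1), and their sign was that of the member for 8 of 10 and opposite for Trp53 (0.16 beside -0.41) and Sesn1 (-0.39 beside 0.38). For KO E5 against WT they ran from -0.25 (Gadd45a) to 0.27 (Eda2r), and only that of Sesn1 was opposite in sign to the member (-0.0389 beside 0.32). Between the clones they ran from -0.18 (Trp53) to 0.39 (Zmat3), with the sign of the member for 6 of 10 and the opposite sign for Trp53, Cdkn1a, Ccng1 and Sesn1. For the other members called between the clones, the median and the member stood at 0.30 and 0.31 for Mdm2, 0.39 and 0.72 for Zmat3, 0.34 and 0.98 for Eda2r, and 0.07 and 0.84 for Gadd45a. Whether the neighbourhood has a part in the members' values was not tested.

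As a description, the genes whose level ran most like that of Cdkn1a were sought among 9156 well-expressed genes by Pearson's r of log2 CPM over the 9 libraries, which share 3 lines. They were Gas1 (r = 0.973), Pole2 (0.972), Ccdc71l (0.969), Ppp3r1 (0.967) and Dusp22 (0.967). Among the members, r with Cdkn1a was 0.869 for Phlda3, 0.727 for Sesn1, 0.624 for Ccng1, 0.443 for Eda2r, 0.139 for Zmat3, -0.109 for Mdm2, -0.539 for Aen, -0.617 for Gadd45a and -0.715 for Trp53.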

How the data were processed

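The deposited table gives raw counts per gene from 9 libraries. By the submitters' notes the authors used FastQC, Trimmomatic and STAR on GRCm39 (versions not given). The counter, strand setting and annotation release are not given in the sources used here, so counts of overlapping or antisense genes are uncertain. The authors compared lines with DESeq2. Here edgeR 4.0.16 in R 4.3.3 was used: filterByExpr (minimum count 10, minimum total 15), TMM scaling, quasi-likelihood test with the 3 lines in 1 fit, Benjamini-Hochberg FDR under 0.05. The SE is the absolute log2 fold change over the root of F. The edgeR test was run on simulated counts with 1 common spread, for KO E3 against WT and KO E5 against WT only. The other steps were not tested on simulated counts. The members and lists were chosen with earlier results of these data known. The named genes of each list are at most 4 genes called in the same direction in both clones on either side and the 3 with the largest called difference between clones. The apoptosis targets called lower in KO E3 were named beside these after the values were seen. Gene lengths and starts came from GENCODE M39 on GRCm39, which matched 98.9% of gene IDs, and of those 74.2% had the same start or end, so lengths and starts may differ from those behind the counts. Alternatives were DESeq2 1.42.0, DESeq2 size factors, upper-quartile scaling, other filters, only the 2 lines compared, a replicate block, and leaving out each library. Alternatives for genes outside the members and for member medians, and list counts without KO E3 replicate 3, were chosen after seeing the data.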

Additional observations from a re-analysis of the deposited data

Results flagged for a closer look

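For 5 members the change from WT differed between the clones by the direct test of KO E5 against KO E3, which called 31.9% of all tested genes. The log2 difference was 0.31 for Mdm2 (adjusted p = 0.0326), -0.47 for Ccng1 (adjusted p = 0.0393), 0.84 for Gadd45a (adjusted p = 0.0376), 0.72 for Zmat3 (adjusted p = 0.00796) and 0.98 for Eda2r (adjusted p = 0.0106). For Ccng1 and Gadd45a both clones were called in 1 direction against WT and differed in size, for Eda2r the call against WT was in KO E5, and for Mdm2 and Zmat3 neither clone was called against WT. Of 16 alternatives, the call was lost in 11 for Mdm2, 8 for Ccng1 and 7 for Gadd45a, and it held in all for Zmat3 and Eda2r. Each clone is 1 line, so the difference is one between these lines.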

How the results depend on the processing

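Of 480 values of the members under the alternatives, 389 kept their direction and their side of the threshold, 65 fell short of it, 20 passed it and 6 changed sign. The calls for Trp53, Ccng1 and Gadd45a in KO E3 against WT, and for Zmat3 and Eda2r between the clones, held under all 16 alternatives. The changes of sign were in values that had not been called: Trp53 between the clones (-0.0397 with upper-quartile scaling), Eda2r in KO E3 against WT (0.05 without WT replicate 1, 0.19 without KO E3 replicate 3, and -0.30 to 0.19 over the libraries left out), Sesn1 between the clones (0.029 without KO E3 replicate 1, and -0.16 to 0.029 over the libraries) and Phlda3 between the clones (0.17 without KO E3 replicate 3, 0.01 without KO E5 replicate 3, and -0.17 to 0.17 over the libraries). The cause was not tested. Upper-quartile scaling gave 3 members called between the clones, beside 32.6% of all genes, and it shifted the median of all genes by -0.09 there and by 0.08 in KO E3 against WT. With only the 2 lines compared, the members called were 3 in KO E3 against WT, 9 in KO E5 against WT and 2 between the clones, beside 23.5%, 46.8% (6596) and 22.0% of all genes, and the cause was not tested. Leaving out 1 library at a time gave 2875 to 6423 genes called in KO E3 against WT, 1767 to 6246 in KO E5 against WT and 3235 to 6555 between the clones, and 3 to 7, 1 to 8 and 2 to 6 members. With a replicate block the genes called were 3664, 2309 and 3887 and the members 4, 4 and 4, and replicate numbers did not pair libraries across lines. Of 78 called values of named genes outside the members, 58 kept their call under every alternative run and 20 lost it in some, and none changed sign. Not among the 78 are Casp1, Fas, Gdf15 and Ptprv, which are given as counts only. Nor are the cell markers, the genes most like Cdkn1a, or Bid, Bbc3, Tnfrsf10b and Steap3. The counting error of a member in 1 library was at most 4.09%, if each fragment was counted once.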
